A study of Mus musculus with 12 samples.

Results

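Gpr15, Pdgfb, Plce1, Stc2, Ypel1, 2900026A02Rik, 4933440M02Rik and 5033430I15Rik were higher in CD8+ than in CD4+ T cells of B6 mice, and in CD8Dual mice that difference was lost or turned around. The 8 genes were taken by symbol from a table of 49585 genes and were chosen by these measured differences, so the differences that chose them are described with estimates and standard errors and are not tested. All 8 were among the 13118 genes with enough reads to be fitted, but 4 passed the filter on low counts only through 1 group in which they were high, B6 CD8+ T cells for Plce1, Stc2 and Ypel1 and CD8.1 T cells for 5033430I15Rik, and these 4 genes were given no test in any contrast.

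The samples were lymph node (LN) T cells sorted as naive and TCRβ+ (antibody H57) from male mice of 6 to 10 weeks of age, with 3 samples in each of 4 groups. B6 mice (C57BL/6) provided CD4+ and CD8+ T cells, and CD8Dual mice (also named 8in4) provided CD8.1 and CD8.2 T cells. The Cd4 locus of CD8Dual mice was altered to encode CD8α.1 and CD8β, and their intact Cd8 locus encodes CD8α.2 and CD8β, so that CD8.1 T cells carry a co-receptor from the Cd4 locus and CD8.2 T cells from the Cd8 locus. The study asked what sets the fate of thymocytes selected on MHC class I, including the co-receptor locus and the thymic peptides that select them. RNA came from pooled sorted cells, and nothing states how many mice made a pool or that the 3 samples were separate animals, so P values measure the spread between these samples. The sample labels give 1 surface marker for the naive gate, while the study's methods also name absence of CD44.

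Libraries held 18667474 to 37110502 counts, the deepest being CD8.2 replicate 3. The labels were checked with co-receptor and lineage genes. In counts per 1000000 counts of the library (CPM), Cd4 was at 908 to 1004 in B6 CD4+ samples and 47.2 to 51.5 in CD8.1 samples, and at no more than 1.79 in any other sample. Zbtb7b, which encodes the helper lineage factor ThPOK, had 154 to 164 CPM in B6 CD4+ and 117 to 173 CPM in CD8.1 T cells, and no more than 2.11 CPM in any B6 CD8+ or CD8.2 sample. T cell receptor complex genes (6 of 6) and naive T cell genes (5 of 5) had counts in every group. The 8 genes themselves were expressed at low levels, and 12 of their 96 values rested on 3 counts or fewer, a floor of 0.0875 to 0.167 CPM depending on the library. Such floors cover counting error only.

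CD8+ T cells that leave the thymus are mostly resting cells that circulate through lymph nodes with the help of CCR7, and their cytotoxic program is tied to RUNX3 as the helper program is tied to ThPOK. Transcripts that separate the lineages include receptors that steer cells to tissues, and Gpr15 is such a receptor: it is a G protein-coupled receptor that guides T cells, regulatory T cells among them, to the large intestine, and it can be induced through the aryl hydrocarbon receptor (AHR) and TGF-β. Pdgfb encodes the B chain of platelet-derived growth factor, a secreted mitogen for mesenchymal cells. Plce1 encodes phospholipase C epsilon, which is bound by RAS and RAP GTPases and cleaves the membrane lipid PIP2. Stc2 encodes stanniocalcin-2, a secreted glycoprotein that inhibits the protease PAPP-A and is induced by endoplasmic reticulum stress. Ypel1 belongs to a family of small conserved zinc-binding proteins whose functions are little known. The other three are named only by clone: 2900026A02Rik is annotated as protein coding and has the RefSeq synonym Kiaa1671, while 4933440M02Rik and 5033430I15Rik are annotated as long intergenic noncoding RNAs.

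The genes lie on 7 chromosomes, and all positions are on GRCm38, the same assembly as mm10. Gpr15 is at chr16:58717433-58719070 on the minus strand and Ypel1 at chr16:17069696-17087045 on the plus strand of the same chromosome. Pdgfb is at chr15:79995874-80014977 (minus), Plce1 at chr19:38481109-38785030 (plus) and Stc2 at chr11:31357307-31370074 (minus). The clone-named genes are at chr5:113086323-113221236 (2900026A02Rik, minus), chr7:125284025-125349788 (4933440M02Rik, minus) and chr13:45965253-45966508 (5033430I15Rik, plus).

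RefSeq promoter windows on GRCm38.p6, from 250 bases before to 50 bases after an annotated start, were matched to 6 of the 8 genes and searched on both strands for 4 short motifs. The RUNX motif TGTGGT was present in 16.8% of all 32851 windows and in 1 of the 6 genes, Gpr15. The AHR core GCGTG was present in 32.4% of all windows and in 3 of the 6 genes, Stc2, Ypel1 and 2900026A02Rik. The T-box motif GGTGTGA was present in 3.98% of all windows and in 1 of the 6 genes, 4933440M02Rik. The ETS motif GGAAGT was present in 23.8% of all windows and in 0 of the 6 genes. A match is a description of letters and not of binding, and no motif was shared by all of the genes. 3 stretches are shown because they hold the matches of the genes with the strongest contrasts between the strains, each written 5′ to 3′ on the gene's strand with the motif in capitals. The Gpr15 stretch (chr16:58718937-58718966) lies within the annotated exon of GENCODE's gene model. It holds a pair of RUNX matches on the opposite strand at positions -85 and -79 from the RefSeq start. The 4933440M02Rik window (chr7:125349737-125350036) holds a T-box match at position -173, and the Stc2 stretch (chr11:31370075-31370311) holds an AHR core match on each strand, at -240 and -231. The matches of different motifs did not overlap.
Gpr15: agaaagaaaACCACAACCACAgccaatacc
4933440M02Rik: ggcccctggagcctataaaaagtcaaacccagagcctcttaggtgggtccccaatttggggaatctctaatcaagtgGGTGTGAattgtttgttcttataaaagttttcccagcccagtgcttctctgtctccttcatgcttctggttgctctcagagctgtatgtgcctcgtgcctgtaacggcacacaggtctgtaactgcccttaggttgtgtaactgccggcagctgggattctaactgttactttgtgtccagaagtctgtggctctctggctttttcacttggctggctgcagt
Stc2: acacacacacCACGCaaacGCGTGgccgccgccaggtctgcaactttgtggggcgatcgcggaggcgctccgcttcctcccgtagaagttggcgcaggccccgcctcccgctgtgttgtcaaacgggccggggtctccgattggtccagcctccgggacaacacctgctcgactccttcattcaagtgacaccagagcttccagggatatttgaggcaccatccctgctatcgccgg

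The genes lost their CD8 bias in different ways. Gpr15, 4933440M02Rik and 5033430I15Rik were high in CD8.1 T cells, the helper-lineage cells, and every CD8.1 sample exceeded every CD8.2 sample, as for 19.8% of all tested genes. Plce1, Stc2 and 2900026A02Rik were high in B6 CD8+ T cells alone and low in the other three groups. Pdgfb and Ypel1 had means in both CD8Dual groups that lay between those of B6 CD4+ and B6 CD8+ T cells. In these bulk samples, fewer cells that express a gene and less RNA per cell cannot be told apart.

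**Figure D1:**
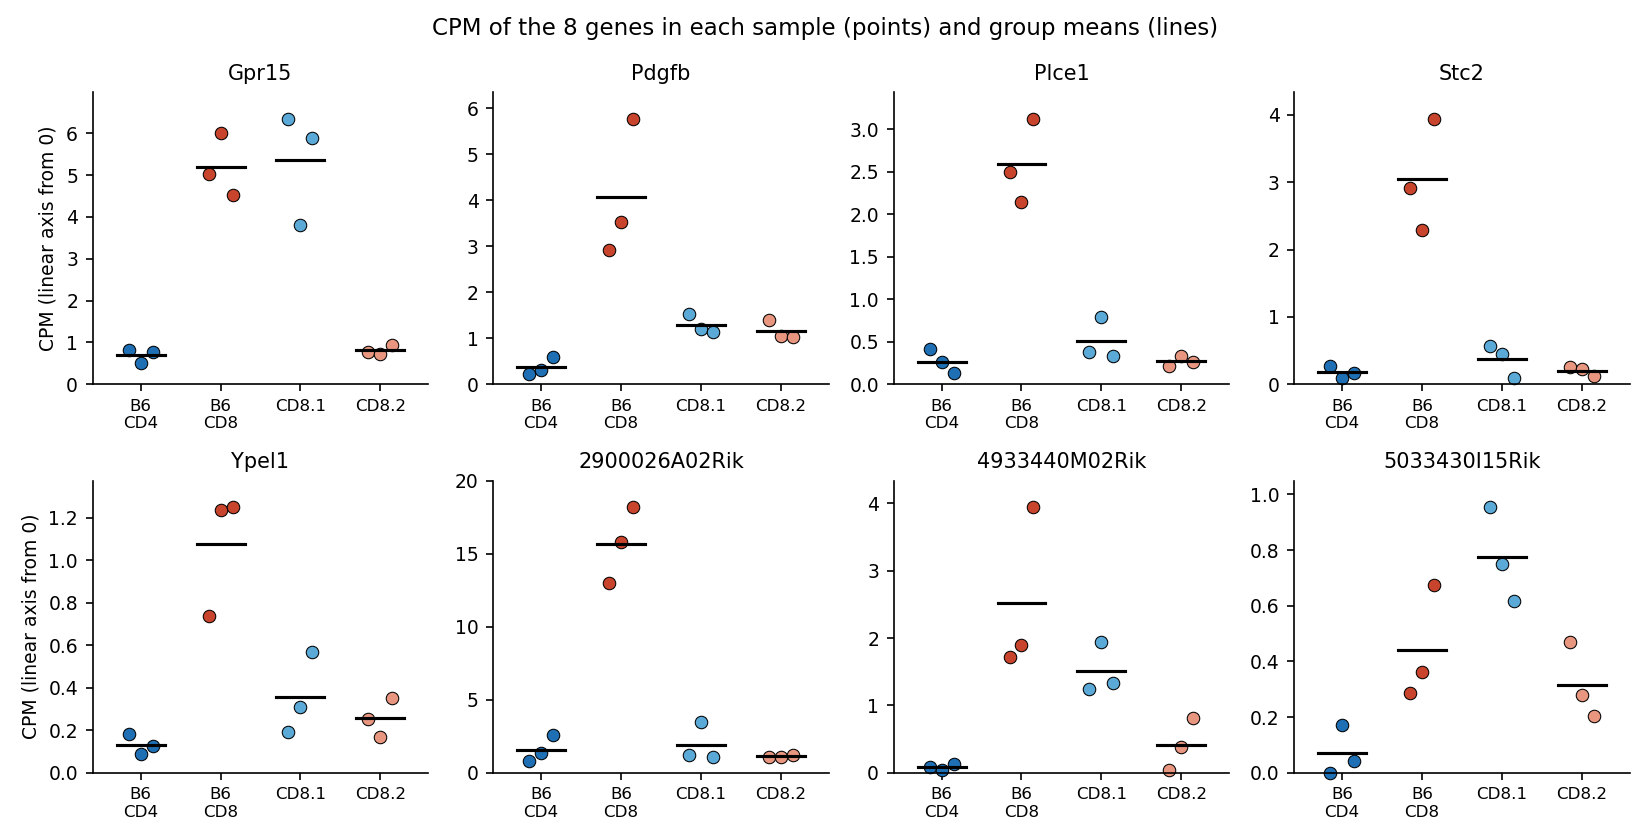
CPM of each gene in each of the 12 samples on linear axes from 0, with 3 points per group and a line at the group mean. B6 CD8+ samples lie above all B6 CD4+ samples in all 8 panels, as for 19.6% of all tested genes, and CD8.1 samples lie above all CD8.2 samples for Gpr15, 4933440M02Rik and 5033430I15Rik.

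Gpr15, the gut-homing receptor, reversed most completely. B6 CD8+ samples had 5.04, 6.00 and 4.52 CPM, and B6 CD4+ samples had 0.819, 0.517 and 0.766 CPM. In CD8Dual mice the CD8.1 samples had 6.35, 3.80 and 5.89 CPM, and the CD8.2 samples had 0.766, 0.722 and 0.933 CPM. The order of means was thus CD8.1 and B6 CD8+ (5.35 ± 1.36 and 5.19 ± 0.750 CPM, SD, n = 3), whose samples overlapped, and far below them CD8.2 and B6 CD4+ (0.807 ± 0.111 and 0.700 ± 0.161 CPM), which also overlapped. On the log2 scale, B6 CD4+ minus CD8+ was -2.88 (SE 0.262) and CD8.1 minus CD8.2 was 2.69 (SE 0.255).

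4933440M02Rik, a noncoding RNA, had nearly no reads in B6 CD4+ T cells. The B6 CD4+ samples had 2, 1 and 3 counts (0.0910, 0.0431 and 0.128 CPM), and the B6 CD8+ samples had 42, 52 and 82 counts (1.72, 1.89 and 3.95 CPM). CD8.1 samples had 1.24, 1.95 and 1.33 CPM, which overlapped with B6 CD8+. CD8.2 samples were uneven, at 0.0426, 0.389 and 0.817 CPM from 1, 7 and 28 counts, and replicate 3, the deepest library, was the highest. The log2 difference was -4.76 (SE 0.705) in B6 and 1.74 (SE 0.554) in CD8Dual T cells. The latter was 2.90 without CD8.2 replicate 3 and 1.23 without CD8.2 replicate 1.

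5033430I15Rik, the other noncoding RNA, was the lowest of the 8 in reads. Its counts were 0, 4 and 1 in B6 CD4+ (0, 0.172 and 0.0425 CPM) and 7, 10 and 14 in B6 CD8+ samples (0.287, 0.364 and 0.674 CPM). CD8.1 samples had 0.955, 0.752 and 0.617 CPM, the highest group mean at 176% of the B6 CD8+ mean, although the groups overlapped. CD8.2 samples had 0.468, 0.278 and 0.204 CPM, which overlapped with B6 CD8+ and lay above every B6 CD4+ sample. Its log2 difference was -2.49 (SE 0.721) in B6 and 1.31 (SE 0.527) in CD8Dual T cells. The B6 value rests on 5 counts in all of the B6 CD4+ libraries. It was -4.01 without B6 CD4+ replicate 2 and -1.97 without B6 CD4+ replicate 1, the latter short of a fold over 5.

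2900026A02Rik had the highest CPM of the 8 in both B6 groups and was the clearest case of a gene high in B6 CD8+ T cells alone. B6 CD8+ samples had 13.0, 15.8 and 18.2 CPM, and B6 CD4+ samples had 0.819, 1.38 and 2.55 CPM. The CD8.2 samples stood close together at 1.11, 1.11 and 1.22 CPM, or 7.33% of the B6 CD8+ mean. The CD8.1 samples had 1.19, 3.45 and 1.09 CPM, so replicate 2 stood apart, and the group overlapped with B6 CD4+ and CD8.2. The CD8.1 minus CD8.2 difference of 0.74 (SE 0.429, log2) rested on that replicate and was -0.016 without it, while the B6 difference was -3.29 (SE 0.372).

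Stc2, the stanniocalcin gene, had the same shape. It had 2.91, 2.29 and 3.95 CPM in B6 CD8+ and 0.273, 0.0862 and 0.170 CPM in B6 CD4+ samples. CD8.1 samples had 0.573, 0.442 and 0.0950 CPM and CD8.2 samples 0.255, 0.222 and 0.117 CPM, and these 3 low groups overlapped with each other. The CD8.2 mean was 6.50% and the CD8.1 mean 12.1% of the B6 CD8+ mean. Log2 differences were -4.07 (SE 0.503) in B6 and 0.96 (SE 0.601) in CD8Dual T cells.

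Plce1, the RAS-linked phospholipase, also stayed low outside B6 CD8+ T cells. Its B6 CD8+ samples had 2.50, 2.15 and 3.13 CPM and its B6 CD4+ samples 0.409, 0.259 and 0.128 CPM. CD8.1 samples had 0.382, 0.796 and 0.332 CPM, and CD8.2 samples had 0.213, 0.333 and 0.262 CPM, or 10.4% of the B6 CD8+ mean. B6 CD4+, CD8.1 and CD8.2 samples overlapped with each other, and all lay below every B6 CD8+ sample. The log2 difference was -3.27 (SE 0.418) in B6 and 0.92 (SE 0.476) in CD8Dual T cells, the latter 0.42 without CD8.1 replicate 2.

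Pdgfb, the growth factor chain, had overlapping, intermediate levels in the CD8Dual groups. B6 CD8+ samples had 2.91, 3.53 and 5.77 CPM, and B6 CD4+ samples had 0.227, 0.302 and 0.595 CPM. CD8.1 samples had 1.53, 1.19 and 1.14 CPM and CD8.2 samples had 1.40, 1.06 and 1.02 CPM. Both CD8Dual groups lay above every B6 CD4+ and below every B6 CD8+ sample and overlapped with each other. Their means were 31.6% and 28.5% of the B6 CD8+ mean, and CD8.1 minus CD8.2 was 0.15 (SE 0.340) on the log2 scale, against -3.41 (SE 0.367) in B6.

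Ypel1, the yippee-like gene, followed Pdgfb at a lower level. It had 0.737, 1.24 and 1.25 CPM in B6 CD8+ and 0.182, 0.0862 and 0.128 CPM in B6 CD4+ samples. CD8.1 samples had 0.191, 0.310 and 0.570 CPM, all above B6 CD4+, and CD8.2 samples had 0.255, 0.167 and 0.350 CPM, which overlapped with both CD8.1 and B6 CD4+. Every CD8Dual sample lay below every B6 CD8+ sample. The log2 difference was -2.98 (SE 0.506) in B6 and 0.39 (SE 0.508) in CD8Dual T cells.

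Levels of different genes were compared per kilobase of annotated exon, in B6 CD8+ T cells. Gpr15 was then the highest at 3.17 ± 0.458 CPM per kb, ahead of 2900026A02Rik at 1.45 ± 0.241 and Pdgfb at 0.978 ± 0.362 CPM per kb (SD, n = 3). Stc2 (0.589 ± 0.162), 4933440M02Rik (0.531 ± 0.261) and 5033430I15Rik (0.463 ± 0.215 CPM per kb) followed within each other's spread. Ypel1 (0.232 ± 0.0631) and Plce1 (0.162 ± 0.0311 CPM per kb) were the lowest and also lay within each other's spread.

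The genes come from a small share of the CD8-high genes. In B6 mice, 216 genes met the study's limits for a differentially expressed gene (DEG, a fold over 5 with P under 0.05) with the higher level in CD8+ T cells, 1.65% of those tested, and the 8 genes are among them by choice. These 216 were counted anew with the filter and test used here and are not the study's own list. Of the 216, 26 had a CD8.1 minus CD8.2 difference that was under 1.5-fold or of the opposite sign, and 17 (7.87%) had the opposite sign, including all 8. The median log2 difference of the 216 genes was -3.49 in B6 and -2.31 in CD8Dual T cells. Ighj1, at -0.55, lay just inside the 1.5-fold limit and Tspan4, at -0.66, just outside it.

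The change between the strains in the lineage difference, (CD8.1 minus CD8.2) minus (B6 CD4+ minus B6 CD8+), was largest for 4933440M02Rik among the 26 genes, at 6.50 (SE 0.909, log2). It was followed by the gene listed as PVRIG (6.28), the NK receptor gene Klrc2 (6.02, with an SE of 1.72 for its CD8.1 minus CD8.2 difference), Gpr15 (5.58) and the inflammasome sensor gene Naip5 (5.35). The other six of the 8 genes ranged from 3.38 (SE 0.731) for Ypel1 to 5.03 (SE 0.799) for Stc2. Positive interactions with an adjusted P under 0.05 (edgeR) were found for 1.58% of all tested genes and negative ones for 0.290%, and no such call was made for the 8 genes, whose choice used this contrast.

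**Figure D2:**
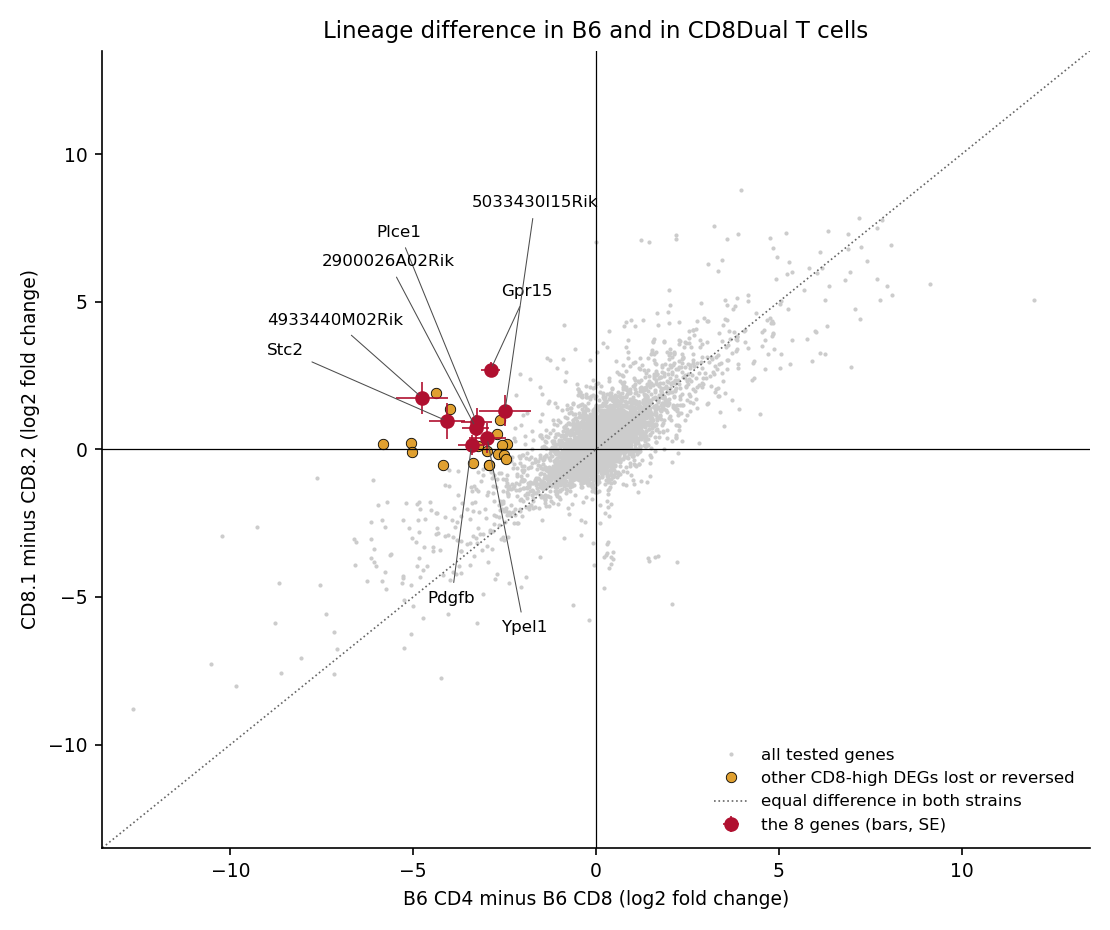
Log2 fold change between B6 CD4+ and CD8+ T cells (x axis) against CD8.1 minus CD8.2 (y axis) for all 13118 tested genes, with the 8 genes in red (bars, SE) and the other CD8-high genes that met the definition in orange. The 8 genes lie left of 0 in B6 and above 0 in CD8Dual T cells, Gpr15 highest at 2.69, away from the dotted line of equal differences.

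Each CD8Dual group was set beside the B6 group of the same lineage. Every CD8.2 sample lay below every B6 CD8+ sample for 7 of the 8 genes, the exception being 5033430I15Rik, and such separation was seen for 18.6% of all tested genes. CD8.2 minus B6 CD8+ ranged from -3.97 (SE 0.494, log2) for Stc2 to -0.48 (SE 0.556) for 5033430I15Rik. Every CD8.1 sample lay above every B6 CD4+ sample for 5 of the 8 genes (14.1% of all tested genes), the exceptions being Plce1, Stc2 and 2900026A02Rik. CD8.1 minus B6 CD4+ was 4.03 (SE 0.736) for 4933440M02Rik, 3.32 (SE 0.675) for 5033430I15Rik and 2.92 (SE 0.263) for Gpr15, and 0.28 (SE 0.415) for 2900026A02Rik. These comparisons share their samples with the differences that chose the genes and are given as a description.

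The crossed groups are also given as a description, since a high level in B6 CD8+ T cells was part of the choice of genes. Plce1, Stc2 and Ypel1 passed the filter on low counts only through that group, so a lower level elsewhere was largely set in advance. All CD8.1 samples were below all B6 CD8+ samples for Pdgfb, Plce1, Stc2, Ypel1 and 2900026A02Rik (5 of 8, against 23.2% of all tested genes), and overlapped for the 3 genes that were high in CD8.1 T cells. All CD8.2 samples were above all B6 CD4+ samples for Pdgfb and 5033430I15Rik (2 of 8, against 23.3% of all tested genes).

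The mean level over both lineages was compared between CD8Dual and B6 mice, a contrast that the choice of genes did not use although the samples are the same. The average includes the B6 CD8+ samples, whose high level was part of the choice, so its P values are not independent of that choice. The test was read for the 4 genes that passed the filter on low counts without relying on 1 group. In the quasi-likelihood test of edgeR, adjusted over all genes, 1 of these 4 differed, against 20.7% of all tested genes (10.3% higher and 10.4% lower). It was 2900026A02Rik, whose average was lower in CD8Dual T cells by 1.74 (SE 0.284, log2, adjusted P = 9.16e-04), a call kept in all 18 fits. The difference lay on the CD8 side, where CD8.2 minus B6 CD8+ was -3.75 (SE 0.385). The B6 level on that side was part of the choice, so the call and its repeats add no separate evidence. CD8.1 minus B6 CD4+ was 0.28 (SE 0.415).

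For the other genes the average is a description: it was -1.46 (SE 0.425) for Stc2, -1.16 (SE 0.330) for Plce1, -0.28 (SE 0.397) for Ypel1 and 1.42 (SE 0.454, log2) for 5033430I15Rik. No strain difference passed in this contrast for Gpr15 (0.13, SE 0.187, adjusted P = 0.659), Pdgfb (-0.024, SE 0.324, adjusted P = 0.970) or 4933440M02Rik (0.78, SE 0.491, adjusted P = 0.283 by edgeR). For Gpr15, a rise in CD8.1 and a fall in CD8.2 of like size left the average near 0.

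**Figure D3:**
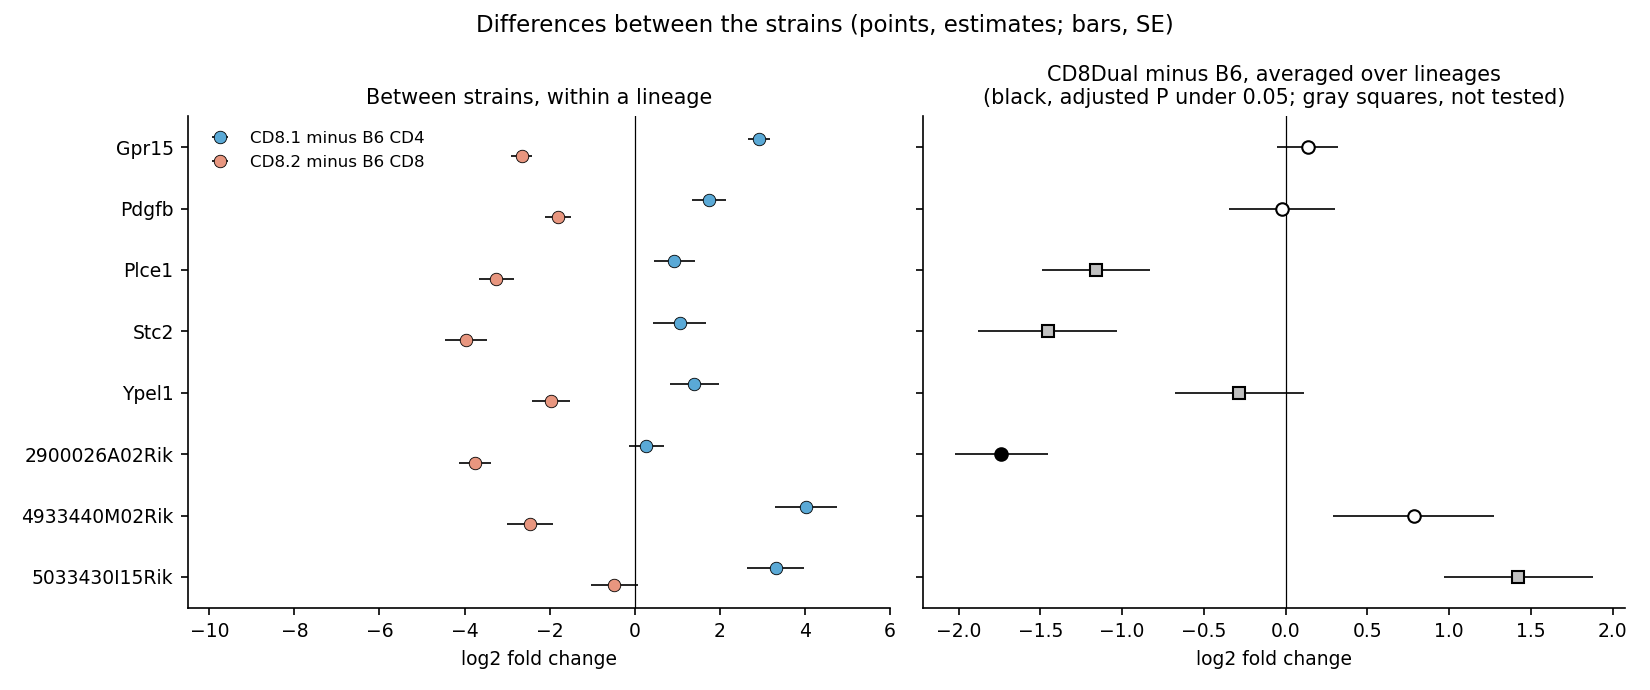
Left, log2 fold change of each gene between the strains within a lineage, CD8.1 minus B6 CD4+ in blue and CD8.2 minus B6 CD8+ in salmon; right, CD8Dual minus B6 averaged over both lineages, black where adjusted P was under 0.05, white where it was not and as gray squares for the 4 genes not tested (points, estimates, and bars, SE). All CD8.1 shifts lie above 0 and all CD8.2 shifts below 0, and on the right 2900026A02Rik is the 1 gene in black, at -1.74.

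Marker genes of other T cell states differed between the same groups. The summed level of 11 regulatory T cell genes, all detected in every group, was 872 to 1033 CPM in CD8.1 and 413 to 540 CPM in B6 CD4+ samples, and 104 to 119 CPM in B6 CD8+ and CD8.2 samples. Foxp3, which defines regulatory T cells, had 102 to 168 CPM in CD8.1 and no more than 0.529 CPM in B6 CD8+ samples, the groups with the highest Gpr15. The sum of 12 memory or effector CD8 T cell genes, all detected, was highest in B6 CD8+ samples (2044 to 2477 CPM), followed by CD8.2 (1376 to 1469 CPM), CD8.1 (347 to 395 CPM) and B6 CD4+ samples (136 to 173 CPM). The 5 NK cell genes, all detected, summed to 148 to 193 CPM in B6 CD8+, 120 to 124 CPM in CD8.2 and no more than 15.6 CPM in the other samples. Nearly all of it was Klrd1, at group means of 159 CPM in B6 CD8+ and 119 CPM in CD8.2 T cells. In B6 CD8+ T cells, Klre1 had 6.82, Fcgr3 2.53 and Klrb1c 1.90 CPM, and Ncr1 was too low to be tested. The part of these marker genes, and of the cells they mark, in the levels of the 8 genes was not tested.

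Markers of cells outside the T lineage were present in every group. The 7 B cell genes summed to 559 to 839 CPM over all samples, most of it Ighm at group means of 475 to 580 CPM. Averaged over lineages, 5 of the 7 were higher in CD8Dual T cells (10.3% of all tested genes), with Cd79a at 0.95 (SE 0.172, log2, adjusted P = 0.00176) and Ms4a1 at 1.04 (SE 0.194, adjusted P = 0.00212 by edgeR). Ighm did not pass (0.085, SE 0.0589, adjusted P = 0.337 by edgeR). The 10 myeloid or dendritic cell genes, all detected, summed to 4.73 to 12.1 CPM over the B6 samples, 17.1 to 21.0 CPM in the CD8.1 samples and 10.9 to 24.5 CPM in the CD8.2 samples. Endothelial cells and platelets, known sources of Pdgfb, had 3 to 7 of their 8 markers detected depending on the group. Their sum of 101 to 207 CPM was nearly all Pecam1. In the B6 CD8+ samples, where Pdgfb was highest, the sum was 104 to 128 CPM, Emcn, Pf4, Ppbp, Kdr and Cldn5 were at 0 counts, Itga2b had 3, 0 and 3 counts, and Cdh5 had a mean of 0.162 CPM. The part of B cells, myeloid cells, endothelial cells and platelets in these results was not tested.

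Gene-to-gene likeness was measured as Pearson's r of log2 CPM (prior count 2) over the 12 samples, which share the 4 groups and the library depths, and is given as a description. Among the 8, Plce1 and Stc2 (0.941), Stc2 and 2900026A02Rik (0.903), Plce1 and 2900026A02Rik (0.900) and Gpr15 and 4933440M02Rik (0.873) were the most alike, and 2900026A02Rik and 5033430I15Rik the least (0.251). Of 11270 or 11271 genes with a mean of at least 1 CPM, the 5 most like Gpr15 were Lysmd2 (0.954), the chemokine receptor gene Ccr2 (0.914), the actin-binding coronin gene Coro2a (0.907), the intermediate filament gene Vim (0.896) and the TNF receptor gene Tnfrsf1b (0.881). Like Gpr15, Ccr2 was high in CD8.1 and B6 CD8+ T cells (16.1 ± 6.86 and 13.0 ± 3.78 CPM, SD, n = 3) and low in B6 CD4+ and CD8.2 T cells (3.08 ± 1.12 and 2.77 ± 0.311 CPM). The gene most like each of the others was Rnf144a for Pdgfb (0.958), Cdk6 for Stc2 (0.940), Txndc5 for Plce1 (0.935), Itpripl2 for 2900026A02Rik (0.929), Gramd1b for Ypel1 (0.926), F2rl1 for 4933440M02Rik (0.913) and Cd44 for 5033430I15Rik (0.888). Cd44, a marker of antigen experience, was highest in CD8.1 T cells (72.0 ± 5.13 CPM), followed by CD8.2 (55.2 ± 5.32 CPM), B6 CD8+ (51.0 ± 9.36 CPM) and B6 CD4+ T cells (35.1 ± 2.16 CPM).

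Genes of the pathways around the 8 genes were taken from lists and tested across all genes, which share the samples with the results above. For homing receptors and AHR or TGF-β linked genes, the setting of Gpr15, 17 of 19 were tested and 3 had a positive interaction (1.58% of all tested genes), with 0 negative (0.290%). They were Itgae (3.93, SE 0.202, adjusted P = 1.91e-08 by edgeR), which encodes the CD103 integrin chain, Cxcr6 (2.67, SE 0.210, adjusted P = 2.26e-06) and Itgb1 (0.89, SE 0.141, adjusted P = 0.00240). Unlike Gpr15, Itgae and Cxcr6 kept the higher level on the CD8 side in CD8Dual mice, with mean CPM of 246 in B6 CD8+ and 101 in CD8.2 against 29.1 in CD8.1 T cells for Itgae, and of 276 and 187 against 12.4 for Cxcr6. Ahr itself was low, at 1.06 to 3.85 CPM in group means, and its interaction of 0.98 (SE 0.480) did not pass (adjusted P = 0.40 by edgeR). Averaged over lineages, 9 of the 17 were higher (10.3% of all tested genes) and 2 lower (10.4%) in CD8Dual T cells, the higher ones including the chemokine receptor genes Ccr9 (1.43, SE 0.167, adjusted P = 9.70e-05) and Ccr6 (1.47, SE 0.206, adjusted P = 3.38e-04). The integrin gene Itgb7, among the most expressed of the list, did not pass in any of these contrasts (interaction 0.0084, SE 0.106, adjusted P = 0.983 by edgeR).

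Of the PDGF and VEGF ligands and receptors, the setting of Pdgfb, 5 of 13 were tested, and 3 had a positive (1.58% of all tested genes) and 0 a negative interaction (0.290%). Nrp2, which encodes a VEGF and semaphorin co-receptor, was like Pdgfb highest in B6 CD8+ T cells, at a mean of 30.4 CPM. B6 CD4+ had 1.87, CD8.1 had 2.98 and CD8.2 had 4.91 CPM, with an interaction of 3.29 (SE 0.320, adjusted P = 2.48e-05 by edgeR). Unlike Pdgfb, Nrp2 stayed higher on the CD8 side in CD8Dual mice, with CD8.1 minus CD8.2 at -0.72 (SE 0.225, log2, adjusted P = 0.0266 by edgeR). Its average was lower in CD8Dual T cells (-0.99, SE 0.161, adjusted P = 9.13e-04 by edgeR), while that of Pdgfb did not pass. Nrp1, which regulatory T cells express, had an interaction of 1.51 (SE 0.292, adjusted P = 0.0109 by edgeR) and 49.7 CPM in CD8.1 T cells. It was higher on the helper side in both strains, by 2.95 in B6 and 4.46 (log2) in CD8Dual T cells. Vegfb had an interaction of 0.81 (SE 0.194, adjusted P = 0.0456 by edgeR), a call kept in 7 of 19 fits. Vegfb stayed higher on the CD8 side, with log2 differences of -1.41 in B6 and -0.60 in CD8Dual T cells. Of the receptors for PDGF, Pdgfrb alone was tested, at 0.648 CPM in B6 CD8+ T cells, and Pdgfra was too low to be tested.

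The other lists moved less. Among phospholipase C genes and activators of RAS or RAP, the setting of Plce1, 23 of 28 were tested and 0 passed in the interaction, while 2 were higher (10.3% of all tested genes) and 6 lower (10.4%) in the average of CD8Dual T cells. Those lower included Rasgrp2 (-0.46, SE 0.0604, adjusted P = 2.07e-04), Rapgef1 (-0.42, SE 0.0794, adjusted P = 0.00232) and Plcg1 (-0.37, SE 0.0885, adjusted P = 0.00909 by edgeR), the phospholipase of T cell receptor signaling, against an untested -1.16 for Plce1. Of the stanniocalcin and stress genes, the setting of Stc2, 12 of 17 were tested with 0 passing in the interaction (1, Igfbp4, with a replicate block per strain, at adjusted P = 0.0277 by edgeR), and Stc1 and the PAPP-A genes Pappa and Pappa2 were too low to be tested. Igfbp4, a substrate of PAPP-A, was lower (-0.58, SE 0.0626, adjusted P = 5.45e-05) and the stress genes Herpud1 (0.34, SE 0.0562, adjusted P = 9.96e-04) and Xbp1 (0.20, SE 0.0628, adjusted P = 0.0340, kept in 10 of 18 fits) were higher in CD8Dual T cells by edgeR. In the yippee-like family of Ypel1, 3 of 4 were tested, and 0 passed in the interaction or the strain average. All 3 (Ypel2, Ypel3 and Ypel5) were higher in B6 CD4+ than in B6 CD8+ T cells, as were 11.4% of all tested genes (1.74, 0.35 and 0.33 on the log2 scale, with adjusted P of 0.00102, 0.0105 and 0.0128 by edgeR), the direction opposite to Ypel1.

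**Figure D4:**
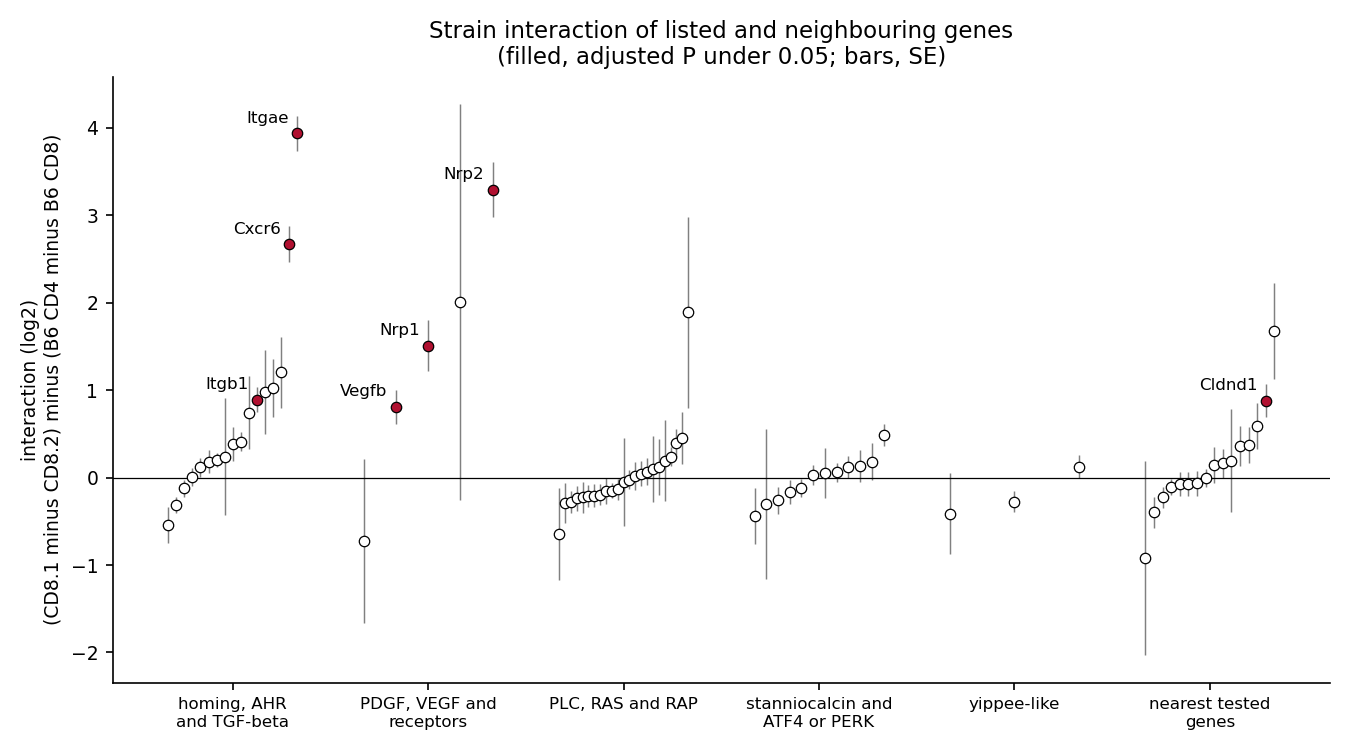
Strain interaction (log2) of each tested gene of the 5 lists and of the 16 nearest tested neighbors of the 8 genes (points, estimates, and bars, SE), filled and named where adjusted P was under 0.05. All 7 that passed are above 0, with Itgae at 3.93 the highest, and the phospholipase, stanniocalcin and yippee-like lists hold none.

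Shared sequence with other genes was checked, since the sources give no use of strand in counting and reads from overlapping genes on opposite strands could then not be told apart. Gpr15 shares 204 exonic bases (12.5% of its own) with Cpox on the opposite strand. Cpox had group means of 15.1 to 19.6 CPM, with an interaction of 0.35 (SE 0.163) that did not pass (adjusted P = 0.371 by edgeR). Ypel1 shares 456 exonic bases (9.84%) with Ppil2 and 244 (5.26%) with the pseudogene Gm9974, both on the opposite strand. Ppil2 had 24086 counts in all and was lower in B6 CD4+ than in B6 CD8+ T cells (-0.33, SE 0.0939, adjusted P = 0.0189), the direction of Ypel1, and its interaction of 0.18 did not pass (adjusted P = 0.591 by edgeR). The part of shared reads in the levels of Gpr15 and Ypel1 was not tested. The other 6 genes share no exonic base with an annotated gene, and their remaining overlaps were with genes that had 0 counts or were not analysed here.

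Genes beside the 8 were compared in the same contrasts. Of the 16 nearest tested genes, 1 on each side, the interaction passed for 1 (1.58% of all tested genes were positive), Cldnd1, which lies 8839 bases from Gpr15. Its interaction was 0.88 (SE 0.189, adjusted P = 0.0222 by edgeR), from -0.31 between B6 CD4+ and CD8+ (adjusted P = 0.121, and 0.0396 with a replicate block per strain) and 0.57 for CD8.1 minus CD8.2 (adjusted P = 0.00470). That call was kept in 12 of 19 fits. Atxn1, which lies 244 bases from 5033430I15Rik, was lower in B6 CD4+ than in CD8+ T cells (-0.62, SE 0.146, adjusted P = 0.00505 by edgeR) with an interaction of 0.37 that did not pass (adjusted P = 0.468). 2610318N02Rik, which lies 26352 bases from Ypel1, was also lower in B6 CD4+ than in CD8+ T cells (-1.39, SE 0.389, adjusted P = 0.0166 by edgeR). Its mean CPM stood in the order of Ypel1, with 2.14 for B6 CD8+, then 1.30 for CD8.1, 1.09 for CD8.2 and 0.812 for B6 CD4+ T cells, and its interaction of 1.68 (SE 0.553) did not pass (adjusted P = 0.191). Averaged over lineages, 4 of the 16 differed, against 20.7% of all tested genes: 3 were higher (Cbx7 and Rpl3 beside Pdgfb, Asb3 beside Stc2) and 1 was lower (Wscd2 beside 2900026A02Rik) in CD8Dual T cells, calls that were kept in 6, 13, 7 and 18 of 18 fits.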

How the data were processed

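RNA-seq of sorted LN T cells was analysed for 12 samples in 4 groups, taken with their replicate numbers from the sample labels. The authors prepared libraries with a SMARTer low-input kit, sequenced read pairs, used STAR for alignment to mm10, and deposited the raw count of each gene from RSEM, in whole numbers with no normalization. Versions, annotation and use of strand are not given in the sources used here. The labels' processing notes also name limma, with no role.

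Counts were fitted in R 4.3.3 with edgeR 4.0.16 (glmQLFit, glmQLFTest, TMM, filterByExpr over the 4 groups), with all 12 samples in a model of 1 coefficient per group. SEs were the log2 fold change divided by the square root of F, and P values were adjusted by Benjamini-Hochberg over 13118 genes. CPM used TMM library sizes. The strain average was the 1 contrast read as a test for the 8 genes, and only for those that would have passed the filter without any 1 group. DEGs followed the study's limits, a fold over 5 and P under 0.05, but with the filter and test given here, so they are not the study's own list. The 8 genes, the lists of related genes and the markers were chosen with earlier results of these data known. Named genes were the 8, overlapping and nearest tested genes, those most alike by Pearson's r, the 5 largest interactions of the lost or reversed genes, and list genes that passed in the interaction or strain average or were the most expressed. The values of some list and marker genes are not reported here, and these are counted with their lists. Cd4, Zbtb7b, Foxp3 and other markers were named as checks, and Ahr, Pdgfra, Pdgfrb, Stc1, Pappa, Pappa2, Ypel2 and the genes at the 1.5-fold limit were named after their values were seen.

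Positions came from GENCODE M21, matched to 49326 of 49585 identifiers without their version, and promoter windows from RefSeq. The model fit was also tried on counts simulated from the means and spread fitted to these data. Replicates of a group differed by a chi-square of 8.48 to 83.7 per gene, so no sample was merged. Pairs with CD8.2 replicate 3, the deepest library, were the highest (83.7 and 55.1, against 13.0 between replicates 1 and 2). Pairs with CD8.1 replicate 1 had 30.4 and 31.7, against 8.48 between replicates 2 and 3. Pairing comes from replicate numbers in the labels alone: in B6 mice, CD4+ and CD8+ samples of the same number deviated together in every pair (r at least 0.126). Those of CD8.1 and CD8.2 did so for replicates 2 and 3 (r 0.0905 and 0.119) but not for replicate 1 (r -0.0039). The numbers were therefore taken to pair samples within B6 mice only, and the main model fitted no pairing. Alternatives were DESeq2 1.42.0, its size factors, other filters, replicate blocks, the groups compared alone and leaving out each sample, the last 2 with the genes held fixed. Figures were drawn with matplotlib 3.10.9.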

Additional observations from a re-analysis of the deposited data

Results flagged for a closer look

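The lineage difference of the 8 genes differed between B6 and CD8Dual mice, which is the contrast that chose them and is therefore given without a test. The interaction on the log2 scale was 5.58 for Gpr15, 3.56 for Pdgfb, 4.19 for Plce1, 5.03 for Stc2, 3.38 for Ypel1, 4.03 for 2900026A02Rik, 6.50 for 4933440M02Rik and 3.80 for 5033430I15Rik. PVRIG (6.28) and Naip5 (5.35), also among the CD8-high genes that were reversed, were chosen by the same contrast.

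Among genes not chosen by it, the lineage difference also differed between the strains in edgeR's test (adjusted P under 0.05) for Itgae (3.93), Cxcr6 (2.67), Itgb1 (0.89), Nrp1 (1.51), Nrp2 (3.29), Vegfb (0.81) and Cldnd1 (0.88). Over 19 fits, the calls of Itgae, Cxcr6, Itgb1 and Nrp2 were kept in all, that of Nrp1 in 18, that of Cldnd1 in 12 and that of Vegfb in 7. Groups of 3 samples are too small for a search for outlying samples.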

How the results depend on the processing

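Of the counts over all genes, 431 DEGs in B6, 435 in CD8Dual, 26 lost or reversed CD8-high genes, 245 genes with an interaction and 2713 with a strain average difference, most moved by less than 1.5 times. With no filter on low counts, the first 4 were 975, 858, 89 and 620, and with a mean of at least 1 CPM the B6, CD8Dual and lost or reversed counts were 238, 241 and 8, with 4 of the 8 genes left. DESeq2's Wald test gave 410 interactions, and an adjusted P with a fold over 2 as the B6 call gave 113 lost or reversed genes. Leaving out 1 sample gave 430 to 443 B6 DEGs, 417 to 465 CD8Dual DEGs, 22 to 32 lost or reversed genes, 167 to 1378 interactions (1378 without CD8.1 replicate 1) and 1883 to 3489 strain average differences. The B6 DEGs and the lost or reversed genes then held 7 to 8 of the 8 genes. Without CD8.1 replicate 1, 779 of the 1378 interactions were positive, against 207 of 245 with all samples. Why the counts moved was not tested, beyond the number of genes that each filter leaves.

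With a replicate block fitted per strain, B6 DEGs were 430, lost or reversed genes 27, and interactions 330, and with a block shared by the strains, interactions were 211. Both blocks lost the interaction call of Vegfb. The shared block also lost that of Cldnd1 and the strain average calls of Smad3, Cbx7 and Asb3. The block per strain brought the B6 difference of Cldnd1 (adjusted P = 0.0396) and the interactions of Ccr4 (adjusted P = 0.0177) and Igfbp4 (adjusted P = 0.0277 by edgeR) past the threshold, and no other call printed for a gene of the lists or a neighbor changed with a block.

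All 8 genes kept the sign of the B6 difference. CD8.1 minus CD8.2 stayed positive in every fit for 6 of them and reached -0.10 for Ypel1 in 1 of 19 fits and -0.016 for 2900026A02Rik in 1 of 20. The low counts of the 8 genes, 5 to 48 counts over the B6 CD4+ libraries of 7 of them, limit the precision of their fold changes.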
